A study of Mus musculus with 16 samples.

Results

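The 34 genes described here encode the proteins that carry glucose into cells and lactate out of them, the enzymes of glycolysis and of the pentose phosphate branch, the kinases and the dehydrogenase subunit that set the fate of pyruvate, and Hif1a, a transcription factor that binds many of these genes. They were found on the arrays by name. A gene counted as measured where at least 1 probe set carried its symbol and no other, and a gene with several such probe sets was read from the one with the highest mean. This gave 31 measured members of 19938 measured genes, 26 of them with 1 probe set and 5 with several. Gapdh, the glyceraldehyde phosphate dehydrogenase, had only probe sets that also carry other symbols and is described apart. Eno1 and G6pdx are not analysed here.

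Glycolysis splits glucose into pyruvate, which is reduced to lactate by lactate dehydrogenase or enters mitochondria through pyruvate dehydrogenase. The pentose phosphate pathway branches from it and supplies NADPH and the ribose of nucleotides. Dendritic cells (DCs) are known to raise glucose uptake and lactate release after activation through Toll-like receptors, one of which senses LPS, and HIF-1, the dimer of Hif1a and Arnt, is known to induce many glycolytic genes.

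RNA of sorted classical DCs was hybridized to 16 Mouse Gene 1.0 ST arrays (Affymetrix), 2 for each of 8 groups. The groups cross tissue (homeostatic spleen, or bone marrow culture), subset (CD24+ cells, the sort used for cDC1, and CD172a+ cells, the sort used for cDC2) and genotype (Ciita -/-, called KO, and Ciita +/+, called WT). All mice were B6 and carried 1 GFP allele of Zbtb46, a gene of the classical DC lineage, and the labels name no age. Bone marrow was grown in 5% Flt3l for 9 days and treated with gamma interferon, for 22 hours by the growth protocol or 16 hours by the series design, and then with LPS for 4 hours. Each of the 8 mice gave 1 CD24+ and 1 CD172a+ array, so a genotype had 2 mice per tissue. Ciita is the transactivator of the MHC class II genes. Cultured cells differ from spleen cells in origin, growth factor and activation at once, and these cannot be told apart.

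Signal of Ciita, the targeted gene, was 10.97 to 11.40 on the log2 scale in WT and 10.90 to 11.28 in KO spleen, where its probe set did not separate the genotypes (where its probes lie relative to the deletion is not known here), and 10.15 to 10.85 in WT and 7.17 to 9.70 in KO culture. H2-Ab1, a class II gene that Ciita drives, read 13.97 to 14.07 in WT and 11.26 to 12.18 in KO spleen, and 13.68 to 13.85 in WT and 9.38 to 11.63 in KO culture. Of 10 cDC1 markers 9 were higher in spleen CD24+ cells, and all 11 cDC2 markers were lower there. In culture 7 cDC1 markers were higher and 1 lower, and 5 cDC2 markers were lower. On the values as deposited, cDC1 markers summed (log2) to 15.40 to 15.55 in CD24+ and 12.53 to 12.80 in CD172a+ spleen cells. In culture they summed to 14.86 to 14.97 and 14.54 to 14.61. The cDC2 sums were 11.49 to 12.06 and 14.47 to 14.58 in spleen, and 10.57 to 11.09 and 12.29 to 12.43 in culture. Cultured CD172a+ cells thus had a higher cDC1 and a lower cDC2 sum than spleen CD172a+ cells. Signals were summed, so the brightest markers weigh most. Irf8 read 13.37 to 13.48 in cultured and 8.89 to 9.38 in spleen CD172a+ cells, and Cd24a 12.98 to 13.05 and 10.44 to 10.78. Xcr1 read 6.27 to 6.66 and 6.48 to 6.82. Relative to the median gene, 7 of 10 cDC1 markers were higher in cultured CD172a+ cells and 1 lower (49.4% and 29.5% of all genes). In what follows, values after ± are standard errors of the fit, with 4 arrays a side for subsets and tissues and 2 a side for genotypes. Cd24a, the gene of the sorting marker, differed by 2.04 ± 0.07 between the spleen subsets (CD24+ minus CD172a+, log2) and by 0.05 ± 0.07 (adjusted p = 0.669, limma) between the cultured ones, while Sirpa, which encodes CD172a, was lower in CD24+ cells by both differences (-3.90 ± 0.15 and -2.64 ± 0.15). The second KO array of cultured CD24+ cells stood apart, with Xcr1 at 9.58 against 10.41 to 10.87 and Sirpa at 9.17 against 8.36 to 8.43 on the other arrays of that sort. It held the lowest value of its 4 arrays for 24 of 31 members (77.4%) and for 28.2% of all genes. The CD172a+ array of the same mouse was lowest of its 4 for 18 members (58.1%) and 22.6% of all genes, and so was the second WT array of spleen CD24+ cells for 18 members (28.8% of all genes). Array medians were 7.29 to 7.32 in spleen and 6.85 to 6.92 in culture, so culture was compared with spleen after each array's median was subtracted, and genes are given relative to that median. In RNA of sorted populations, fewer cells of a type and less RNA per cell cannot be told apart.

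Most members differed between the subsets, and in culture almost all of the differences ran the same way. In spleen 21 of 31 members passed the threshold (adjusted p under 0.05, limma's moderated test, 2-sided, Benjamini-Hochberg over 19938 genes), 11 higher and 10 lower in CD24+ cells. Of all genes 29.1% passed, 15.6% higher and 13.4% lower. In culture 19 members passed, 18 higher in CD24+ cells and 1 lower, where 24.9% of all genes passed, 11.2% higher and 13.7% lower. The median difference of the 31 members was 0.13 in spleen and 0.44 in culture on the log2 scale, where all genes had medians of 0.03 and -0.03. In culture 8 members were over 2-fold higher in CD24+ cells (2.18% of all genes) and none was over 2-fold lower (0.968%), and after quantile normalization over the 16 arrays 5 were over 2-fold higher. The difference between the tissues in this contrast was itself past the threshold for 19 members (28.2% of all genes), 15 of them with a more positive value in culture and 4 with a more negative one (12.5% and 15.7% of all genes). Without the second KO array of cultured CD24+ cells the culture count was 22, 20 higher and 2 lower, and the count for the difference between tissues was 24.

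**Figure D1:**
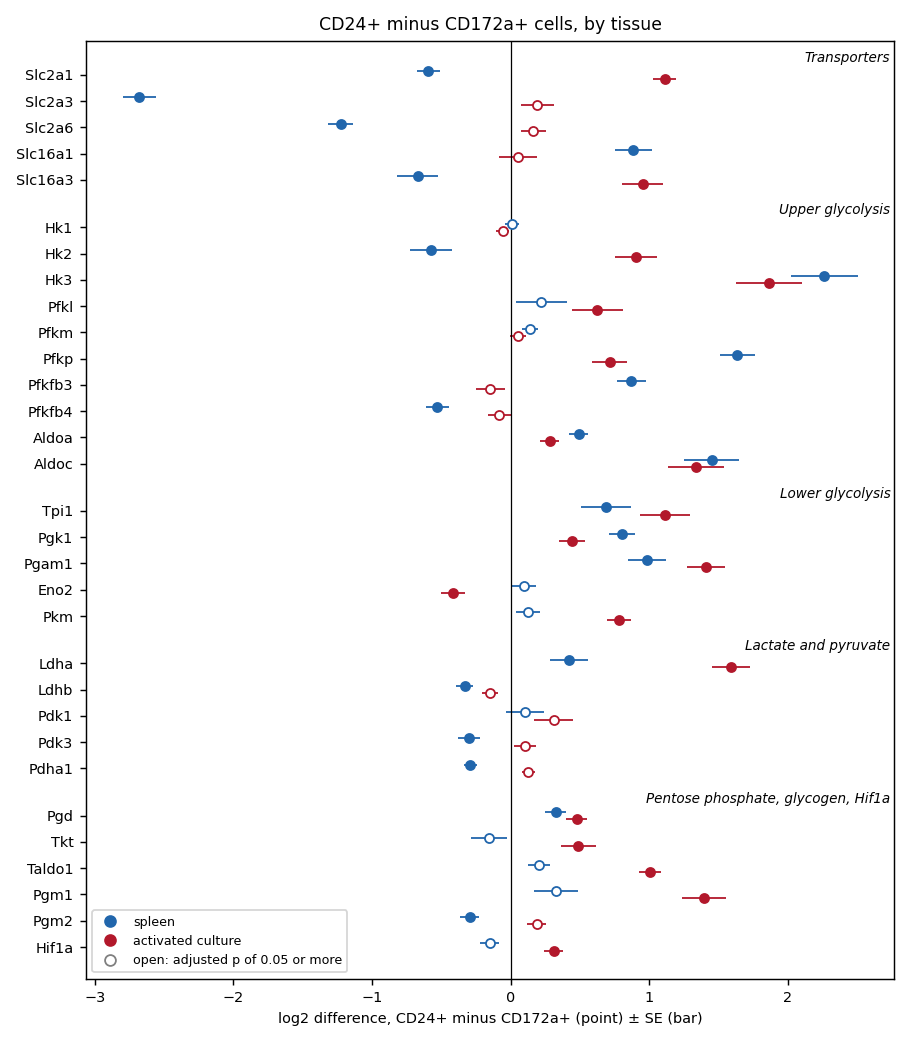
Difference in log2 signal between CD24+ and CD172a+ cells for the 31 members, ordered by role, in spleen (blue) and in activated culture (red), with the standard error as a bar. Filled points passed an adjusted p of 0.05. The red points lie to the right of 0 for 26 members, and Slc2a3 in spleen, at -2.68, lies farthest to the left.

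The transporters among the members differed between the subsets in spleen. Glucose enters cells through the SLC2 family (GLUTs), and monocarboxylates such as lactate cross the membrane through SLC16 proteins (MCTs). All 5 member transporters passed in spleen, with Slc2a1, Slc2a3, Slc2a6 and Slc16a3 lower and Slc16a1 higher in CD24+ cells. In culture Slc2a1 and Slc16a3 were higher in CD24+ cells, and Slc2a3, Slc2a6 and Slc16a1 did not pass the threshold. The difference between the tissues passed for all 5. Of 8 other measured genes of these families, from the list of other transport and glycolysis genes, Slc16a6 (0.48 ± 0.11, adjusted p = 0.00581) and Slc16a7 passed in spleen, and Slc2a4, Slc2a5, Slc2a8, Slc2a9, Slc2a12 and Slc16a4 did not.

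Slc2a3 (probe set 10547641), which encodes the high-affinity transporter GLUT3, read 11.64 and 11.69 on the WT and 11.94 and 11.46 on the KO arrays in spleen CD172a+ cells and 8.98 and 9.14 on the WT and 9.06 and 8.85 on the KO arrays in spleen CD24+ cells. It read 7.04 and 6.87 on the WT and 7.08 and 6.65 on the KO arrays in cultured CD24+ cells and 6.71 and 6.70 on the WT and 6.58 and 6.89 on the KO arrays in cultured CD172a+ cells. The spleen CD172a+ arrays were thus the high ones, the spleen CD24+ arrays lay between, and the 8 culture arrays were low and overlapped between subsets. In spleen the gene was 6.4-fold lower in CD24+ cells, -2.68 ± 0.12 (adjusted p = 4.67e-09), the 62nd lowest difference of 19938 genes. In culture the difference was 0.19 ± 0.12 (95% interval -0.07 to 0.46, adjusted p = 0.307). Against the median gene, the cultured CD172a+ cells lay at -4.54 ± 0.12 relative to spleen (23.2-fold, adjusted p = 1.55e-11), which ranked 27th from the lowest of all genes.

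Slc2a6 (probe set 10481164) encodes GLUT6, a transporter that resides mainly in intracellular membranes. Its values were 8.86 and 8.50 on the WT and 8.81 and 8.54 on the KO arrays in spleen CD24+ cells and 9.95 and 10.08 on the WT and 9.80 and 9.77 on the KO arrays in spleen CD172a+ cells. In culture they were 12.49 and 12.55 on the WT and 12.59 and 12.40 on the KO arrays in CD24+ cells and 12.26 and 12.45 on the WT and 12.41 and 12.26 on the KO arrays in CD172a+ cells. Every culture array was above every spleen array, and the subset gap of spleen, -1.22 ± 0.09 (adjusted p = 5e-07), was 0.16 ± 0.09 in culture (95% interval -0.03 to 0.36, adjusted p = 0.243). Culture exceeded spleen by 4.29 ± 0.09 in CD24+ cells (19.6-fold, adjusted p = 4.05e-12, 29th highest of 19938 genes) and by 2.87 ± 0.09 in CD172a+ cells (7.32-fold, adjusted p = 6.8e-11).

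Slc2a1, Slc16a3 and Hk2 passed the threshold in both tissues with opposite signs, and no other member did. Slc2a1 encodes GLUT1, the transporter of basal glucose uptake, Slc16a3 encodes MCT4, which exports lactate, and Hk2 encodes the inducible hexokinase that phosphorylates glucose. Their promoters are shown because of these opposite signs, so they were picked from the expression values of these data. All 3 genes are known HIF-1 targets in other cells. Also shown are the promoters of Slc2a6, the member with the widest rise in cultured CD24+ cells, and of Ldha. Ldha was 3.01-fold higher in cultured CD24+ than in cultured CD172a+ cells. Sequences are from RefSeq on GRCm38.p6, run 5′ to 3′ on the strand of the gene, and span 250 bases before to 50 after the start. Capitals mark each match to ACGTG, the core of the hypoxia response element, on either strand (CACGT on the strand shown, and CACGTG where both overlap). Slc2a1 lies at chr4:119108495-119108794 on the plus strand, Slc16a3 at chr11:120948817-120949116 (plus), Hk2 at chr6:82774405-82774704 (minus), Slc2a6 at chr2:27027949-27028248 (minus) and the first of 2 Ldha promoters at chr7:46845554-46845853 (plus).
Slc2a1: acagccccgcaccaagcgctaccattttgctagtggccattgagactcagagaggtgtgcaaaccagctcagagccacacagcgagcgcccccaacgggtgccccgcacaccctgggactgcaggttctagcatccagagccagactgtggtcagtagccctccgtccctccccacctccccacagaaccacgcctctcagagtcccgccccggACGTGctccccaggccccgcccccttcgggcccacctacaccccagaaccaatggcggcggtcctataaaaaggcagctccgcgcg
Slc16a3: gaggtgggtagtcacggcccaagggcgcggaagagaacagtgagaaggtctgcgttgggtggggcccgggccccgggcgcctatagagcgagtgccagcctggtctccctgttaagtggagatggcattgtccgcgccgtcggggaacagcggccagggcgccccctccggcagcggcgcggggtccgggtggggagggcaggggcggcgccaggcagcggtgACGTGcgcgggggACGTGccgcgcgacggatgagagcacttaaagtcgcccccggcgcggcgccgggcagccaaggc
Hk2: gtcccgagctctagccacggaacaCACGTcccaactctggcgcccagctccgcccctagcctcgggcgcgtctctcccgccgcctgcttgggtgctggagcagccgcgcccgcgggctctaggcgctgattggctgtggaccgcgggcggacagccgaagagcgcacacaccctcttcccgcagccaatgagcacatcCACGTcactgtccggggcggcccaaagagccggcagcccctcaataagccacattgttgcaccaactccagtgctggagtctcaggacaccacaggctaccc
Slc2a6: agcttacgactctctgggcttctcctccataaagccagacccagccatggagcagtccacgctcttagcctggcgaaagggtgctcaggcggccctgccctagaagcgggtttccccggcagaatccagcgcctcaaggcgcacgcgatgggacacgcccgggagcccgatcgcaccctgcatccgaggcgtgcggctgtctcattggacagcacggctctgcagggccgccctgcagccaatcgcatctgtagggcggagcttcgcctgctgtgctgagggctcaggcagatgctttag
Ldha: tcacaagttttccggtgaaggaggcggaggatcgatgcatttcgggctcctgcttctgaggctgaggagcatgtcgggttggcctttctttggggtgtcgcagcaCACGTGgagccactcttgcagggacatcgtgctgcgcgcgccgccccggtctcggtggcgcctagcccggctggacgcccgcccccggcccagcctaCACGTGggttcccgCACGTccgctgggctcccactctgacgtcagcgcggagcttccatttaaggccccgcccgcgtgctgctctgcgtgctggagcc

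A match starts 36 bases upstream of the Slc2a1 start, 27 and 14 bases upstream for Slc16a3, 226 and 52 for Hk2, and 145, 48 and 34 for Ldha, and the Slc2a6 window holds no match. Of 47 promoters listed for 33 members, 23 (48.9%) hold ACGTG on either strand, against 19.6% of all 32851 promoters and 20.9% of those of protein-coding genes. Among promoters with a GC content of 60% or more, 17 of 27 member promoters (63.0%) and 26.6% of protein-coding promoters hold it. CACGTG, which contains it, is in 10.6% of member promoters and 7.2% of all. These are letter matches and were not tested for binding. Slc2a3 has no entry.

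Slc2a1 (probe set 10507594) read 9.70 and 9.56 on the WT and 9.70 and 9.88 on the KO arrays in spleen CD24+ cells and 10.22 and 10.18 on the WT and 10.32 and 10.49 on the KO arrays in spleen CD172a+ cells. In culture it read 10.69 and 10.87 on the WT and 10.73 and 10.55 on the KO arrays in CD24+ cells and 9.47 and 9.72 on the WT and 9.72 and 9.49 on the KO arrays in CD172a+ cells. The subsets did not overlap in either tissue, and their order turned. The difference was -0.59 ± 0.08 (adjusted p = 0.000151) in spleen and 1.11 ± 0.08 (adjusted p = 1.68e-06) in culture, and the change between tissues was 1.71 ± 0.12 (adjusted p = 6.27e-07). Relative to the median gene, Slc2a1 was 2.75-fold higher in culture in CD24+ cells (1.46 ± 0.09, adjusted p = 1.64e-08) and 1.21-fold lower in CD172a+ cells (-0.28 ± 0.09, adjusted p = 0.0097).

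Slc16a3 (probe set 10383502) followed the same order. It read 7.97 and 7.81 on the WT and 7.91 and 8.01 on the KO arrays in spleen CD24+ cells and 8.60 and 8.59 on the WT and 8.48 and 8.70 on the KO arrays in spleen CD172a+ cells, and 8.63 and 9.03 on the WT and 9.05 and 8.24 on the KO arrays and 7.87 and 8.05 on the WT and 7.72 and 7.503 on the KO arrays in the cultured CD24+ and CD172a+ cells. The difference was -0.67 ± 0.15 (adjusted p = 0.00428) in spleen and 0.95 ± 0.15 (adjusted p = 0.000453) in culture, without overlap in either tissue. Hk2 (probe set 10545588) read 8.29 and 8.28 on the WT and 8.58 and 8.33 on the KO arrays in spleen CD24+ cells and 8.78 and 8.74 on the WT and 9.29 and 8.99 on the KO arrays in spleen CD172a+ cells. In cultured CD24+ cells it read 10.12 and 10.33 on the WT and 10.32 and 9.87 on the KO arrays, and in cultured CD172a+ cells 9.18 and 9.53 on the WT and 9.50 and 8.81 on the KO arrays. Its difference was -0.58 ± 0.15 (adjusted p = 0.0113) in spleen and 0.90 ± 0.15 (adjusted p = 0.000695) in culture. With KO arrays only, the Hk2 calls in both tissues and the Slc16a3 call in spleen were lost. The Hk2 call in spleen was lost without the first KO array of spleen CD172a+ cells (-0.50, adjusted p = 0.053). Slc16a1, which encodes MCT1, ran the other way in spleen, with 7.59 to 7.94 in CD24+ and 6.48 to 7.24 in CD172a+ cells (0.88 ± 0.13, adjusted p = 0.000267), and lay at 5.46 to 5.74 and 5.39 to 5.67 in culture.

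**Figure D2:**
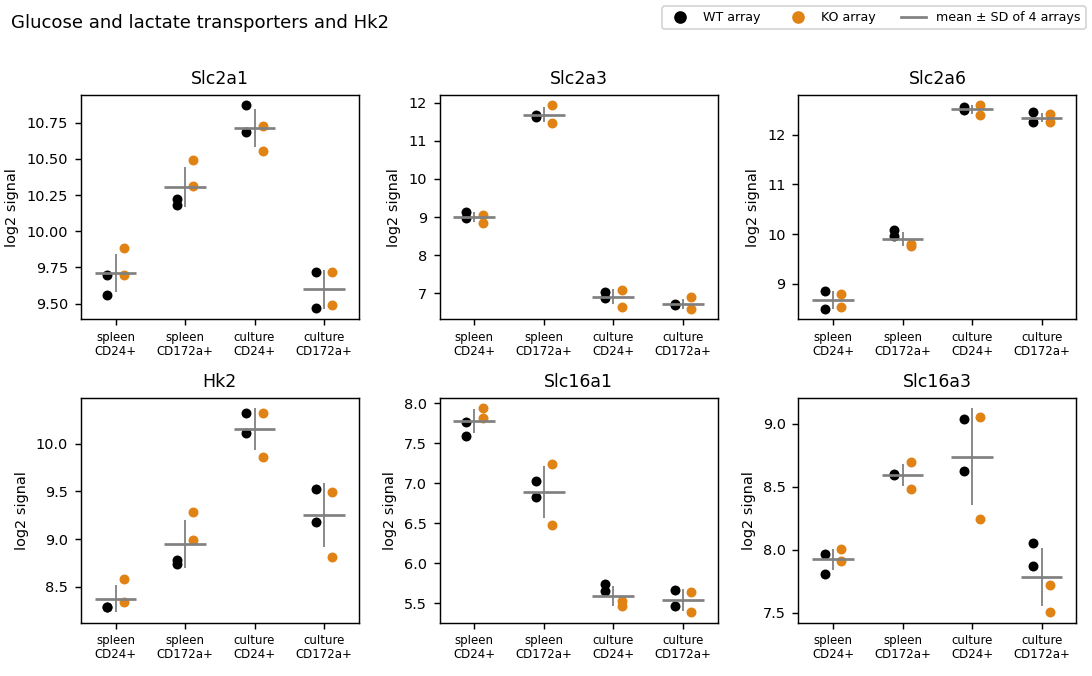
Log2 signal of 5 transporters and Hk2 on each of the 16 arrays (black, WT; orange, KO), with the mean ± SD of the 4 arrays of a tissue and subset in grey; each panel has its own axis, and tissues were not centred here. Slc2a1, Slc16a3 and Hk2 are lower in CD24+ cells in spleen and higher in culture, while the cultured subsets overlap for Slc2a3, Slc2a6 and Slc16a1.

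Of the 10 members from hexokinase to aldolase, 5 were higher and 2 lower in spleen CD24+ cells, and 6 were higher and none lower in cultured CD24+ cells. Hk3, Pfkp, Aldoa and Aldoc were higher in CD24+ cells in both tissues. Hk3, a hexokinase of myeloid cells, read 8.99 to 9.86 in spleen CD24+ and 7.08 to 7.40 in spleen CD172a+ cells, a 4.8-fold gap (2.26 ± 0.24, adjusted p = 1.38e-05), and 8.47 to 9.81 and 6.91 to 7.94 in culture (1.86 ± 0.24, adjusted p = 0.000118). Pfkp, the platelet-type phosphofructokinase that commits sugar to glycolysis, read 11.73 to 12.12 against 10.11 to 10.51 in spleen and 12.70 to 12.97 against 11.79 to 12.36 in culture. Its gap narrowed from 1.64 ± 0.13 (adjusted p = 9.27e-07) to 0.71 ± 0.13 (adjusted p = 0.00128), a change of -0.92 ± 0.18 (adjusted p = 0.00226). Aldoc, an aldolase that splits fructose bisphosphate, differed by 1.45 ± 0.20 (adjusted p = 0.000129) in spleen and 1.34 ± 0.20 (adjusted p = 0.00035) in culture, and the change between tissues, -0.11 ± 0.28, did not pass. The more widely expressed aldolase Aldoa differed by 0.49 ± 0.07 (adjusted p = 0.000145) and 0.28 ± 0.07 (adjusted p = 0.00925).

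The bifunctional enzymes Pfkfb3 and Pfkfb4 make and break down the sugar phosphate that activates phosphofructokinase. Pfkfb3 read 9.95 to 10.10 in spleen CD24+ cells, 9.03 to 9.23 in spleen CD172a+ cells and 11.71 to 12.25 and 11.86 to 12.17 in the cultured subsets, so that the spleen subsets were apart and the cultured ones overlapped. Its subset gap was 0.87 ± 0.10 (adjusted p = 3.64e-05) in spleen and -0.15 ± 0.10 in culture (95% interval -0.37 to 0.08). Pfkfb4 was lower in spleen CD24+ cells (-0.53 ± 0.08, adjusted p = 0.000362), and its difference in culture was -0.08 ± 0.08. The liver-type phosphofructokinase Pfkl passed in culture (0.63 ± 0.18, adjusted p = 0.0249) but not in spleen (0.22 ± 0.18). In the fit with each mouse as a fixed term, Pfkl also passed in spleen, at an unchanged 0.22. The culture call of Pfkl was lost without any 1 of 5 culture arrays: the second KO (0.46) or either WT array (0.62 and 0.63) of CD172a+ cells, or the first KO (0.38) or second WT array (0.58) of CD24+ cells. That call was also lost with KO arrays only and in the fit of the culture arrays alone. Pfkm, the muscle type, did not pass in either tissue (0.14 ± 0.06 and 0.05 ± 0.06).

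Hk1, the constitutive hexokinase, depended on the probe set. The one used here, with the higher mean (12.87), gave 0.01 ± 0.05 in spleen and -0.06 ± 0.05 in culture and was named by 1 transcript accession. The other, with a mean of 8.21 and 8 accessions, gave -0.41 ± 0.14 in spleen (adjusted p = 0.0497 over all probe sets) and -0.13 ± 0.14 in culture. The 2 probe sets also gave opposite directions for culture against spleen, as given below with that comparison, and no direction is drawn for Hk1.

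From triose phosphate to pyruvate, 3 of 5 members were higher in spleen CD24+ cells and 4 in cultured CD24+ cells. Tpi1, the triose phosphate isomerase, read 11.42 to 11.73 in spleen CD24+ and 10.85 to 10.98 in spleen CD172a+ cells, and 11.56 to 12.56 and 10.73 to 11.35 in culture. The subsets did not overlap in either tissue (0.69 ± 0.18, adjusted p = 0.0121, and 1.12 ± 0.18, adjusted p = 0.00061). Pgam1, a phosphoglycerate mutase, read 11.90 to 12.15 against 10.90 to 11.06 in spleen and 11.65 to 12.46 against 10.53 to 10.89 in culture (0.98 ± 0.14, adjusted p = 0.000142, and 1.41 ± 0.14, adjusted p = 1.33e-05). Its other 2 probe sets gave 0.90 ± 0.13 and 1.34 ± 0.13. Pgk1, the phosphoglycerate kinase that yields the first ATP of the pathway, differed by 0.80 ± 0.10 (adjusted p = 3.93e-05) in spleen and 0.44 ± 0.10 (adjusted p = 0.00435) in culture. Its change between tissues, -0.36 ± 0.14, passed only with each mouse as a block. The pyruvate kinase Pkm did not pass in spleen (0.13 ± 0.09) and was higher in cultured CD24+ cells, at 10.91 to 11.39 against 10.23 to 10.55 (0.79 ± 0.09, adjusted p = 3.27e-05). Eno2, the neuronal enolase, was the 1 member lower in cultured CD24+ cells, at -0.42 ± 0.09 (adjusted p = 0.00284), though the arrays overlapped (6.51 to 6.99 and 6.95 to 7.42).

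Ldha, the lactate dehydrogenase subunit that favours lactate formation, had the widest subset gap of the 5 members at the branch of pyruvate. It read 11.79 and 11.88 on the WT and 12.003 and 11.39 on the KO arrays in cultured CD24+ cells and 10.53 and 10.45 on the WT and 10.18 and 9.54 on the KO arrays in cultured CD172a+ cells, a 3.01-fold difference of 1.59 ± 0.14 (adjusted p = 5.7e-06) without overlap. In spleen it read 11.36 and 11.24 on the WT and 11.53 and 11.44 on the KO arrays in CD24+ and 10.94 and 10.99 on the WT and 10.88 and 11.06 on the KO arrays in CD172a+ cells, and the difference of 0.42 ± 0.14 (adjusted p = 0.0384) was near the threshold. That spleen call was lost without any 1 of the 8 spleen arrays (0.38 to 0.47, adjusted p up to 0.122) or any 1 of the 4 WT culture arrays. The change between tissues was 1.17 ± 0.20 (adjusted p = 0.000755). Ldhb, the other subunit, was lower in spleen CD24+ cells (-0.33 ± 0.06, adjusted p = 0.00101) and differed by -0.15 ± 0.06 in culture. Pdha1, a subunit of pyruvate dehydrogenase, and Pdk3, a kinase that inhibits that enzyme, were both lower in spleen CD24+ cells (-0.29 ± 0.05, adjusted p = 0.000524, and -0.30 ± 0.08, adjusted p = 0.0139) and did not pass in culture (0.13 ± 0.05 and 0.10 ± 0.08). The Pdk3 call was lost without the second KO array of spleen CD172a+ cells (-0.27) or the second WT array of spleen CD24+ cells (-0.25). Pdk1, another such kinase, did not pass in either tissue (0.10 ± 0.14 and 0.31 ± 0.14).

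All 3 measured pentose phosphate members were higher in cultured CD24+ cells, where 11.2% of all genes were. Taldo1, the transaldolase of the non-oxidative branch, read 11.58 to 12.02 in cultured CD24+ and 10.67 to 11.004 in cultured CD172a+ cells (1.01 ± 0.08, adjusted p = 2.85e-06). In spleen its subsets lay close, at 12.73 to 12.82 and 12.52 to 12.64 (0.21 ± 0.08, adjusted p = 0.0788), and that 0.21 passed with each mouse as a fixed term. Tkt, the transketolase, differed by 0.49 ± 0.13 (adjusted p = 0.0136) in culture and -0.16 ± 0.13 in spleen. Its culture call was lost without the second KO array of cultured CD172a+ cells (0.42) or the second WT array of cultured CD24+ cells (0.42). The Tkt call was also lost with KO arrays only and in the fit of the culture arrays alone. Pgd, the phosphogluconate dehydrogenase that forms NADPH, was higher in CD24+ cells in both tissues (0.33 ± 0.08, adjusted p = 0.00604, and 0.48 ± 0.08, adjusted p = 0.000522). The phosphoglucomutases, which link glucose phosphate to glycogen and ribose phosphate, split in spleen, where Pgm2 was lower (-0.29 ± 0.07, adjusted p = 0.00536) and Pgm1 did not pass (0.33 ± 0.16). In cultured cells Pgm1 read 8.71 to 9.79 in CD24+ and 7.92 to 8.09 in CD172a+ cells (1.40 ± 0.16, adjusted p = 4.56e-05), and Pgm2 differed by 0.19 ± 0.07, which passed with each mouse as a random or fixed block. Hif1a read 10.60 to 10.87 and 10.77 to 10.88 in the spleen subsets (-0.15 ± 0.07) and 11.17 to 11.29 and 10.78 to 11.07 in culture, where it was higher in CD24+ cells (0.31 ± 0.07, adjusted p = 0.00424, and 0.21 without the call after quantile normalization).

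**Figure D3:**
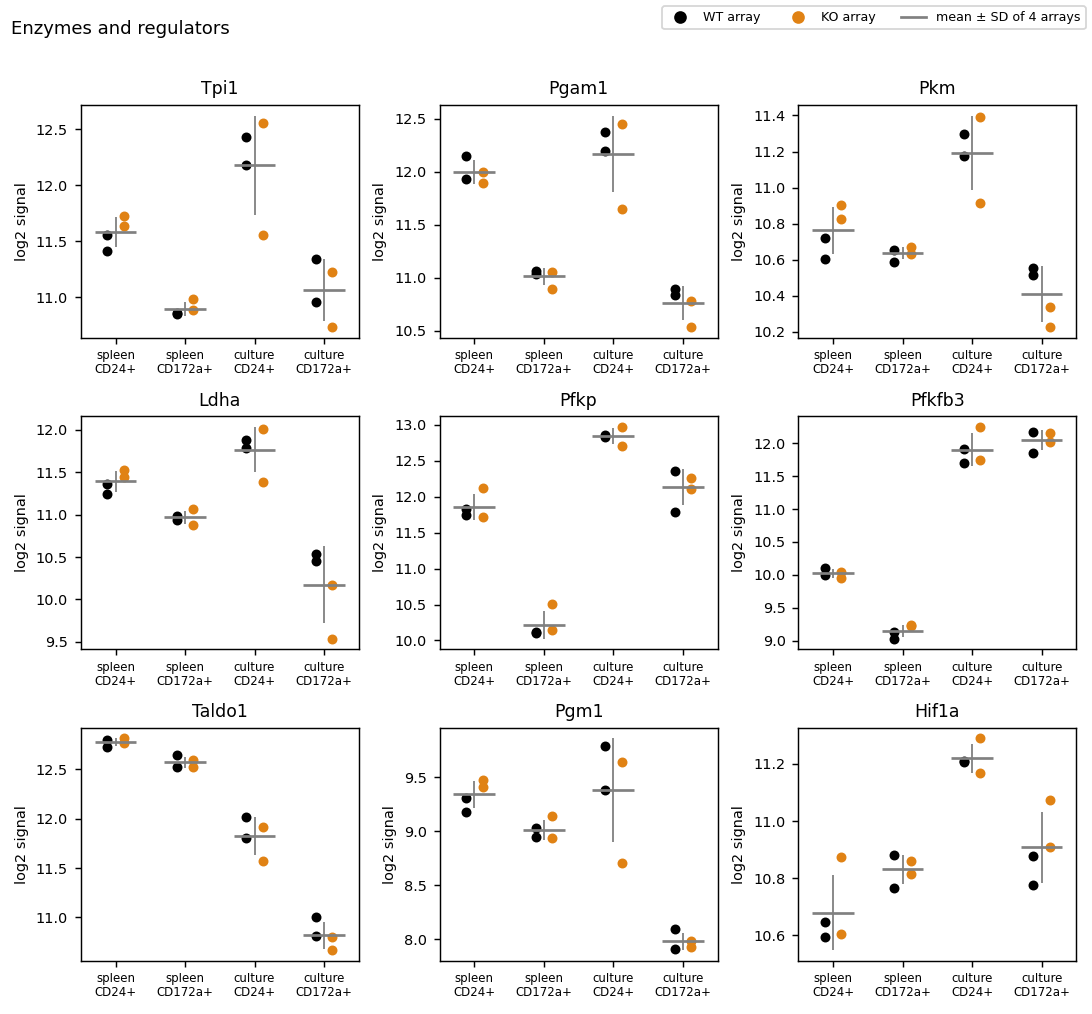
Log2 signal of 9 enzymes and regulators on each array (black, WT; orange, KO), with the mean ± SD of the 4 arrays of a tissue and subset in grey; each panel has its own axis, and tissues were not centred here. Ldha, Pgm1 and Taldo1 separate the cultured subsets more widely than the spleen ones, while Pfkfb3 separates the spleen subsets and overlaps in culture.

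After centring, more members passed as higher than as lower in culture against spleen in CD24+ cells. In CD172a+ cells as many passed as higher as did as lower. In CD24+ cells 20 members were higher in culture and 9 lower, where 76.6% of all genes passed, 47.1% higher and 29.5% lower. In CD172a+ cells 13 were higher and 13 lower, where 78.9% of all genes passed, 49.4% higher and 29.5% lower. With most genes past the threshold, size separates members better than the call. In CD24+ cells 13 members were over 2-fold higher (6.59% of all genes) and 2 over 2-fold lower (8.31%), and in CD172a+ cells 7 were over 2-fold higher (6.88%) and 3 lower (10.1%). The medians were 0.75 and 0.17 in the 2 subsets, against 0.13 and 0.15 for all genes.

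These counts rest on the centring. Of the genes called, 61.5% and 62.6% were higher in culture in CD24+ and CD172a+ cells, against 54.4% and 56.9% after quantile normalization over the 16 arrays and 17.4% and 21.6% of the values as deposited, whose median gene shifted by -0.44. As deposited, 15 members were higher and 11 lower in CD24+ cells, and 8 and 16 in CD172a+ cells. After quantile normalization, where 74.1% and 75.6% of all genes passed, these counts were 18 and 9, and 13 and 12. The counts past 2-fold moved as well. In CD24+ cells 6 members were over 2-fold higher and 6 lower as deposited, and 8 and 3 after quantile normalization. In CD172a+ cells these counts were 6 and 8 as deposited, and 6 and 3 after quantile normalization. The median of the members was 0.29 in CD24+ and -0.25 in CD172a+ cells as deposited, and 0.54 and -0.08 after quantile normalization, so that its sign in CD172a+ cells turned under both. Both comparisons use separate arrays, but the 2 arrays of a mouse share that mouse.

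The widest rises in culture were in Slc2a6, Pfkfb3 and Hk2 in CD24+ cells and in Pfkfb3, Slc2a6 and Pfkp in CD172a+ cells. Pfkfb3 was 5.06-fold higher in CD24+ cells (2.34 ± 0.10, adjusted p = 1.17e-09) and exceeded its spleen level by 3.32 ± 0.10 (adjusted p = 3.95e-11) in CD172a+ cells. Pfkp exceeded it by 1.45 ± 0.13 in CD24+ and 2.34 ± 0.13 in CD172a+ cells, the latter a 5.05-fold gap. Hk2 was 4.75-fold higher in CD24+ cells (2.25 ± 0.16, adjusted p = 7.29e-08) and 1.66-fold higher in CD172a+ cells, a call that was lost as deposited (0.31). Other members higher in both subsets were Aldoa (1.48 ± 0.07 and 1.66 ± 0.07), Pgk1 (1.14 ± 0.10 and 1.47 ± 0.10), Pgd (1.28 ± 0.08 and 1.09 ± 0.08), Pdha1 (1.94 ± 0.05 and 1.49 ± 0.05), Pdk3, Tpi1, Aldoc and Hif1a. Aldoc was at 0.23 and 0.34 as deposited, without either call. Hif1a was higher by 1 ± 0.07 in CD24+ and 0.50 ± 0.07 in CD172a+ cells, the latter at 0.08 as deposited, without the call. Tpi1 in CD172a+ cells (0.60 ± 0.19) lost its call without the first KO array of cultured CD172a+ cells (0.46), after quantile normalization (0.33) and as deposited (0.17).

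The 8 members lower in culture in both subsets were Slc2a3, Slc16a1, Pgm2, Taldo1, Pdk1, Pfkm, Pfkfb4 and Hk1, with the limit on Hk1 that its other probe set was higher (1.12 ± 0.14 in CD24+ and 0.80 ± 0.14 in CD172a+ cells). Slc2a3 was lower by 3.1-fold in CD24+ cells (-1.63 ± 0.12, adjusted p = 1.65e-07), less than in CD172a+ cells by the test of the difference between tissues (2.87 ± 0.17, adjusted p = 1.5e-07). Slc16a1 was lower by 3.3-fold in CD24+ cells (-1.72 ± 0.13, adjusted p = 2.11e-07) and by 1.91-fold in CD172a+ cells (-0.93 ± 0.13, adjusted p = 4.25e-05). Taldo1 was at -0.49 ± 0.09 and -1.33 ± 0.09, and Pgm2 at -0.90 ± 0.07 and -1.42 ± 0.07. Pfkfb4, at -0.24 ± 0.09 in CD24+ cells, lost its call there without any 1 of 5 CD24+ arrays: the second KO (-0.18) or first WT array (-0.22) of culture, or the first KO (-0.23), second KO (-0.24) or first WT array (-0.19) of spleen.

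Slc2a1, Slc16a3, Ldha and Pgm1 were higher in culture in CD24+ cells and lower in CD172a+ cells. Pgm1 differed by 0.50 ± 0.17 (adjusted p = 0.0166) and -0.61 ± 0.17 (adjusted p = 0.00546), and its rise in CD24+ cells lost the call as deposited (0.04) and without the second WT array of cultured CD24+ cells (0.40). Ldha differed by 0.84 ± 0.15 (adjusted p = 0.000256) and -0.37 ± 0.15 (adjusted p = 0.0386), and Slc16a3 by 1.28 ± 0.16 (adjusted p = 1.07e-05) and -0.38 ± 0.16 (adjusted p = 0.0387). The CD172a+ calls of both were lost without any 1 of 6 CD172a+ arrays, the second KO and both WT arrays of each tissue, where Ldha lay between -0.40 and -0.20 and Slc16a3 between -0.42 and -0.32. Both were also lost with WT arrays only and with KO arrays only, and that of Slc16a3 after quantile normalization. The CD172a+ call of Slc2a1 was lost with WT arrays only. Hk3 passed in CD172a+ cells (0.69 ± 0.25, adjusted p = 0.0225) and not in CD24+ cells (0.33 ± 0.25). The Hk3 call was lost without the first KO or second WT array of either tissue (0.58 to 0.68), as deposited (0.27) and with KO arrays only. Tkt was lower in CD172a+ cells (-0.87 ± 0.14, adjusted p = 8.35e-05) and at -0.19 ± 0.14 in CD24+ cells. In CD24+ cells alone, Pkm (0.89 ± 0.09), Pfkl (0.75 ± 0.19), Pgam1 (0.63 ± 0.15) and Ldhb (0.18 ± 0.06) passed as higher and Eno2 (-0.66 ± 0.08) as lower. The limit on Pkm is its other probe set, with a mean of 10.72 and 8 accessions, which was higher in both subsets. It gave 1.17 ± 0.09 in CD24+ and 0.57 ± 0.09 in CD172a+ cells (adjusted p = 8.13e-05 over all probe sets, limma). As deposited Ldhb turned to -0.28 in CD24+ cells. Pkm, by the probe set used here, turned to -0.23 in CD172a+ cells, where it was 0.20 ± 0.09 after centring. Pfkl (0.29) and Pgam1 (0.17) lost their calls in CD24+ cells as deposited. Of values that had not passed, Hk3 in CD24+ cells turned to -0.13 as deposited, and Pgam1 and Pfkl in CD172a+ cells turned from 0.17 to -0.25 and from 0.31 to -0.11. Pgam1 in CD172a+ cells was also at -0.09 after quantile normalization. The Ldhb call was also lost without the first KO array of spleen CD24+ cells (0.16), and those of Ldhb (0.12) and Pgam1 (0.09) after quantile normalization.

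**Figure D4:**
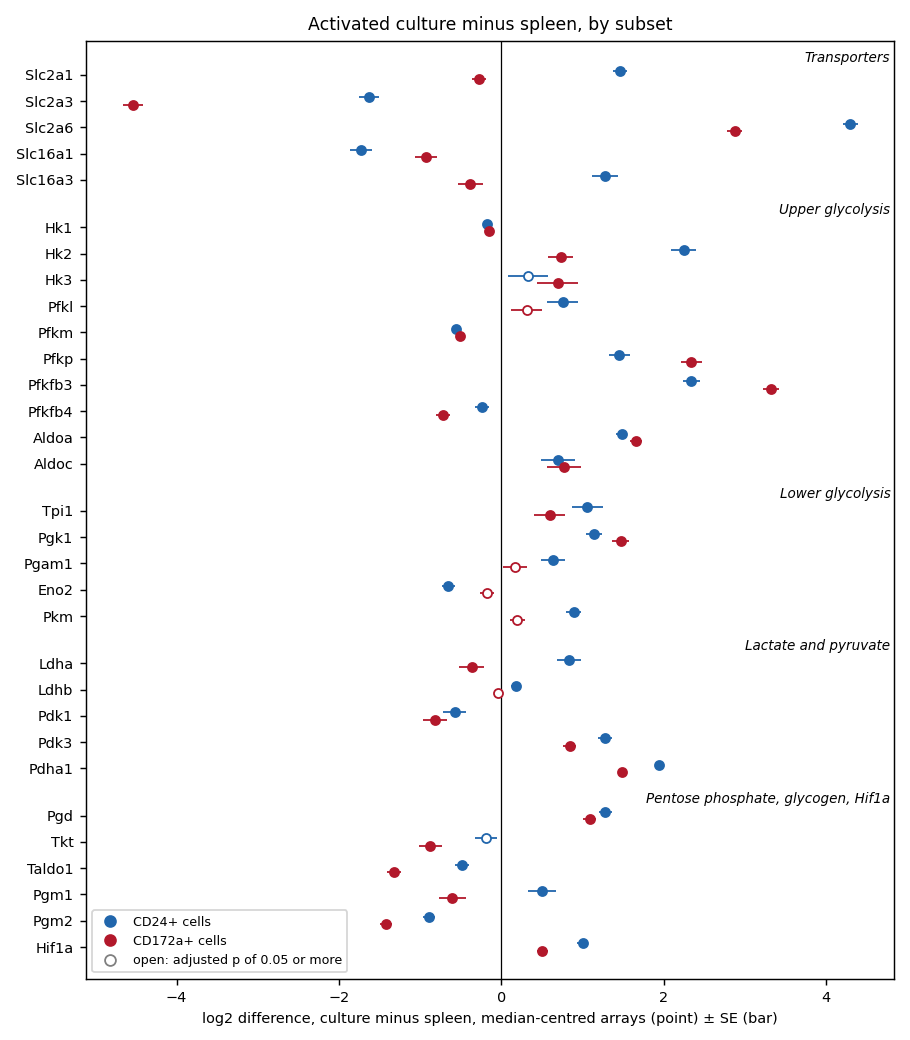
Difference in log2 signal between activated culture and spleen for the 31 members, after each array's median was subtracted, in CD24+ cells (blue) and CD172a+ cells (red), with the standard error as a bar. Slc2a6 lies farthest to the right in CD24+ cells, at 4.29, and Slc2a3 farthest to the left in CD172a+ cells, at -4.54. Without centring, Ldhb and Hk3 in CD24+ cells and Pkm, Pgam1 and Pfkl in CD172a+ cells lie on the other side of 0. With centring, a second probe set of Hk1 does in both subsets.

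Gapdh was read from 25 probe sets that also carry other symbols, so its values are uncertain. In those, the subset difference had a median of 0.13 in spleen, with 10 of 25 past the threshold as higher in CD24+ cells, and 0.02 in culture, with none past it. Culture was above spleen in all 25 in both subsets, by medians of 0.74 and 0.81.

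No member passed the threshold in any of the 4 comparisons of KO with WT (limma, adjusted over 19938 genes). Of all genes 0.0602% passed in spleen CD24+, 0.0802% in spleen CD172a+, 0.0953% in cultured CD24+ and 0.0602% in cultured CD172a+ cells. At an unadjusted p under 0.05 the member counts were 0, 0, 1 and 3, where the shares of all genes were 4.52, 5.22, 7.05 and 6.63%. These were Eno2 in cultured CD24+ cells (0.40 ± 0.12, adjusted p = 0.567) and Ldha (-0.64 ± 0.20, adjusted p = 0.563), Pdha1 (0.22 ± 0.07, adjusted p = 0.563) and Pgm2 (-0.25 ± 0.10, adjusted p = 0.672) in cultured CD172a+ cells. Ldha there read 10.53 and 10.45 on the WT and 10.18 and 9.54 on the KO arrays, which did not overlap. The lowest of these is the array of the mouse named above, and without it the differences were -0.32 for Ldha, -0.13 for Pgm2 and -0.50 for Hk3, none past the threshold. The widest member difference was Hk3 in cultured CD172a+ cells, -0.72 ± 0.34 (95% interval -1.46 to 0.03), and a difference of this size did not pass with 2 mice per genotype. For Slc2a3 the 4 intervals lay within -0.48 to 0.41, and for Slc2a1 within -0.40 to 0.46. KO and WT arrays did not overlap for 15, 14, 4 and 15 members, where 34.1, 37.7, 30.8 and 36.3% of all genes did not overlap. A lower mean in KO was seen for 11 of 31 members in spleen CD24+ cells and for 15 in spleen CD172a+ cells. In cultured CD172a+ cells it was 22 (median difference -0.1, against 0.02 for all genes). In cultured CD24+ cells it was 25 (median -0.13, against 0 for all genes). None was past the threshold. In cultured CD24+ cells the second KO array held the lowest of the 4 values for 24 members. When the first KO array was left out, so that this one alone stood for the KO, 9 members were called lower (Aldoc, Hk3, Pdk1, Pgam1, Pgd, Pgm1, Slc16a3, Tkt and Tpi1) among 1269 genes, and without the second KO array none was.

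Other genes of glucose metabolism were taken from lists drawn up by function. Their median subset differences in spleen and culture were 0.05 and -0.03 for other transport and glycolysis, 0.17 and -0.04 for other pentose phosphate genes, 0.05 and -0.13 for pyruvate entry, 0.07 and 0 for glycogen, 0.13 and -0.01 for HIF regulators and 0.07 and 0.06 for glucose sensing, beside 0.03 and -0.03 for all genes. In that order, the shares passing were 33.3 and 28.6%, 40 and 30%, 18.2 and 36.4%, 29.4 and 35.3%, 36.4 and 36.4%, and 30 and 50%. Of all genes 29.1 and 24.9% passed. The shares of other transport and glycolysis genes lie near these. So do those of glycogen and glucose-sensing genes in spleen and of other pentose phosphate genes in culture. Of 21 further transporter and glycolysis genes, 5 were higher and 2 lower in spleen CD24+ cells, and 2 were higher and 4 lower in culture. Eno3, the muscle enolase, was lower in CD24+ cells in both tissues (-1.44 ± 0.07, adjusted p = 1.75e-08, and -0.87 ± 0.07, adjusted p = 4.51e-06). Slc16a7, which encodes MCT2, was lower in spleen CD24+ cells (-1.73 ± 0.07, adjusted p = 1.2e-09) and in culture (-0.23 ± 0.07, adjusted p = 0.0231). Bpgm, the bisphosphoglycerate mutase, was higher in CD24+ cells in spleen (0.42 ± 0.09) and lower in culture (-0.39 ± 0.09, adjusted p = 0.0046). Bsg, the chaperone that brings MCT1 and MCT4 to the membrane, was higher in cultured CD24+ cells (0.46 ± 0.09, adjusted p = 0.00297). Of 10 further pentose phosphate genes 4 were higher in spleen CD24+ cells, and in culture 1 was higher and 2 lower. Tktl1, a transketolase-like gene, was the higher one (1.04 ± 0.07, adjusted p = 1.14e-06), and Prps1, which makes the activated ribose of nucleotide synthesis, was lower (-1.58 ± 0.15, adjusted p = 1.17e-05).

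Of 11 genes for entry of pyruvate into mitochondria, 1 was higher and 1 lower in spleen CD24+ cells and 4 were lower in culture, among them Pdp1, a phosphatase that activates pyruvate dehydrogenase (-0.57 ± 0.07, adjusted p = 4.56e-05). Of 17 glycogen and gluconeogenesis genes, 3 were higher and 2 lower in spleen CD24+ cells, and 2 were higher and 4 lower in culture. Pygl, a glycogen phosphorylase, was lower in spleen CD24+ cells (-2.22 ± 0.24, adjusted p = 1.31e-05) and at 0.09 ± 0.24 in culture. Gyg, the glycogenin that primes glycogen, was higher in culture than in spleen in CD24+ (2.29 ± 0.11) and CD172a+ cells (3.15 ± 0.11), relative to the median gene.

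Genes linked to HIF-1 split in both tissues. Of 11 HIF regulators, 3 were higher and 1 lower in CD24+ cells in each tissue. Arnt, the partner of Hif1a, was the lower one in spleen (-0.32 ± 0.08, adjusted p = 0.00965) and was higher in culture (0.47 ± 0.08, adjusted p = 0.000876). Of 22 HIF targets outside glycolysis, 2 were higher and 7 lower in spleen CD24+ cells, and 7 were higher and 6 lower in culture. These are 40.9 and 59.1% of the list, where 29.1 and 24.9% of all genes passed. Their medians, -0.01 and -0.07, lay near those of all genes. Bhlhe40, a transcriptional repressor, Vegfa, the endothelial growth factor, and Hilpda, which coats lipid droplets, were lower in spleen CD24+ cells (-2.27 ± 0.16, -2.08 ± 0.15 and -1.38 ± 0.19) and were at -0.48, 0.20 and -0.47 in culture without passing. Bnip3 and Fam162a, both mitochondrial proteins, were higher in cultured CD24+ cells (1.65 ± 0.27 and 1.65 ± 0.19). Plin2, another lipid droplet protein, was higher in CD24+ cells in both tissues (2.55 ± 0.15 and 2.88 ± 0.15), and Adm, the vasodilator adrenomedullin, was lower in both (-0.87 ± 0.19 and -0.998 ± 0.19).

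Of 10 genes that sense or steer glucose use, 2 were higher and 1 lower in spleen CD24+ cells, and 4 were higher and 1 lower in culture. These are 30 and 50% of the list, where 29.1 and 24.9% of all genes passed, so the spleen share lies near that of all genes. Txnip, a glucose-induced inhibitor of glucose uptake, was lower in spleen CD24+ cells (-1.04 ± 0.17, adjusted p = 0.000511) and higher in cultured ones (0.89 ± 0.17, adjusted p = 0.00205). Its order between the subsets thus turned in the same way as that of Slc2a1, Slc16a3 and Hk2. Myc, a transcription factor that drives many glycolytic genes, was higher in cultured CD24+ cells (1.21 ± 0.24, adjusted p = 0.00207) and did not pass in spleen (-0.55). Its relative Mycl was higher in CD24+ cells in both tissues (1.29 ± 0.07 and 1.08 ± 0.07).

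**Figure D5:**
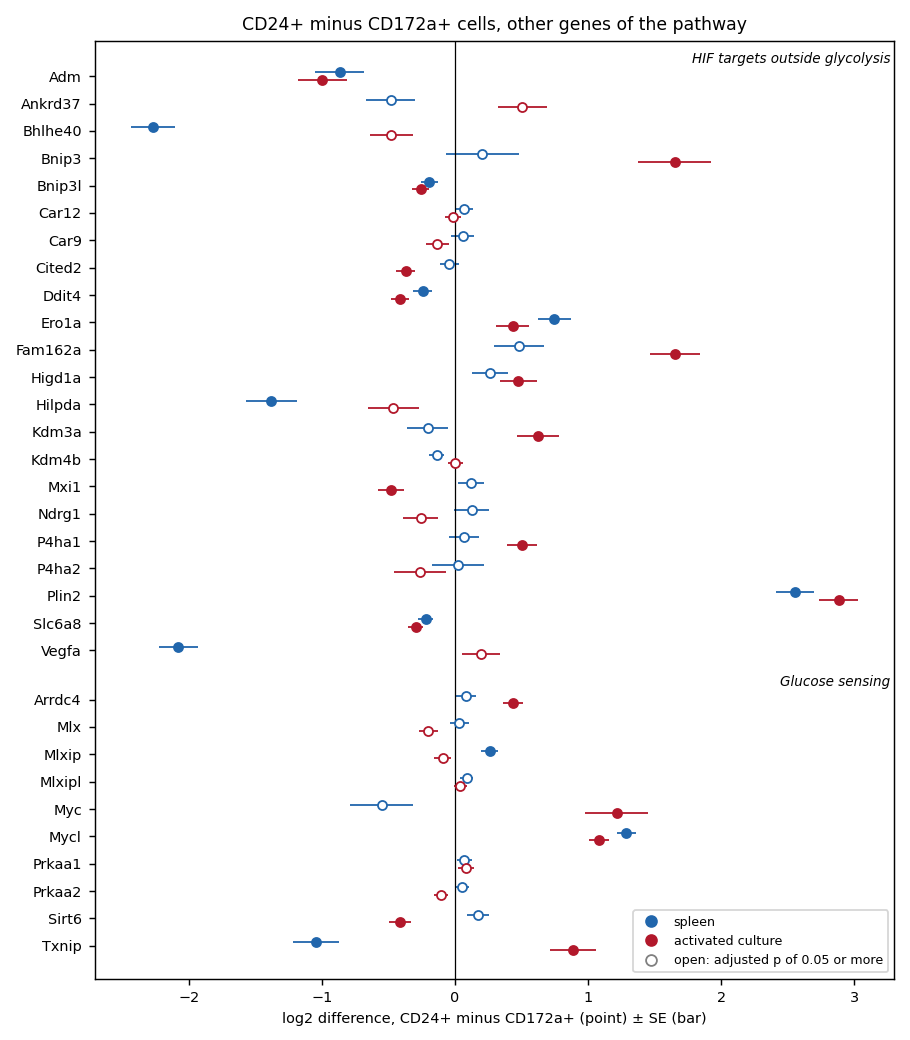
Difference in log2 signal between CD24+ and CD172a+ cells for 22 HIF targets outside glycolysis and 10 glucose-sensing genes in spleen (blue) and activated culture (red), with the standard error as a bar. Filled points passed an adjusted p of 0.05. Vegfa and Bhlhe40 are low in spleen CD24+ cells, at -2.08 and -2.27, Plin2 is high in both tissues, and Txnip lies on opposite sides of 0.

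Some markers of other cells and of cell division also differed between the subsets. Of all genes, 29.1% passed between the spleen subsets and 24.9% between the cultured ones. Of 8 monocyte and macrophage markers 5 were lower in spleen CD24+ cells and 1 higher, with a summed level of 12.67 to 12.71 (log2) in spleen CD24+ and 13.28 to 13.51 in spleen CD172a+ cells, beside the lower Slc2a1, Slc2a3, Slc2a6, Slc16a3 and Hk2 there. Against spleen and relative to the median gene, 6 of the 8 were over 2-fold lower in cultured CD172a+ cells (10.1% of all genes). In cultured CD24+ cells 2 were over 2-fold higher (6.59%) and 4 lower (8.31%). Between the cultured subsets 4 were higher in cultured CD24+ cells and 1 lower, and their summed level was 11.41 to 12.17 in cultured CD24+ and 9.85 to 10.27 in cultured CD172a+ cells. Lyz2, the macrophage lysozyme, was higher by 4.59 ± 0.19 there. Of 12 proliferation genes 4 were higher and 2 lower in cultured CD24+ cells, with Cdk1 at 1.21 ± 0.19 and Top2a at 1.13 ± 0.19. Their summed levels, 12.75 to 12.84 against 12.80 to 12.86, overlapped. The 7 markers of plasmacytoid DCs summed to 13.55 to 13.71 in cultured CD24+ and 13.74 to 13.87 in cultured CD172a+ cells. In spleen they summed to 12.67 to 12.75 and 12.18 to 12.42. As deposited, Bst2 had means of 13.15 and 13.01 in cultured CD24+ and CD172a+ cells, and of 12.15 and 11.58 in spleen. Siglech went the other way, with 6.61 and 6.59 in culture and 7.79 and 7.30 in spleen. Between the cultured subsets, Tcf4 was lower (-1.235 ± 0.09) and Pacsin1 higher (1.205 ± 0.14) in CD24+ cells. In spleen, neutrophil markers summed to 9.90 to 12.63 in CD24+ cells and 9.72 to 10.22 in CD172a+ cells, and erythroid markers to 9.33 to 10.78 and 9.23 to 9.53, with the highest value of S100a8 (10.07) and Car1 (10.23) on the second KO array of CD24+ cells. The members' counts without that array were 21 in spleen, 10 higher and 11 lower. The part of these cells in the members' differences was not tested.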

How the data were processed

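Total RNA of sorted cells was DNase-treated, amplified with the Ovation Pico WTA system and hybridized, per the labels' protocols. The values deposited by the authors are log2 signals, 1 per probe set. That the scale is log2 follows from their range, and the background correction, normalization and summarization are not given in the sources used here. Array medians differed by tissue, so the tissues look normalized separately.

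Of 30177 probe sets, 21789 had 1 gene symbol in the platform annotation. The highest-mean probe set of each gene left 19938 genes. Tests used limma 3.58.1 in R 4.3.3 on the 16 arrays, each group with its own mean and 8 residual plus 3.95 prior degrees of freedom. The subset difference is CD24+ minus CD172a+, averaged over genotypes; culture minus spleen used median-centred arrays. P-values were 2-sided and Benjamini-Hochberg adjusted over all genes, with a threshold of 0.05. The number of arrays limits the precision.

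Mice supplied both subsets, so the pairing is by animal. The correlation across genes of the deviations of a mouse's 2 arrays was 0.202 (KO) and -0.0957 (WT) in spleen and 0.393 and 0.205 in culture. Alternatives included each mouse as a block, quantile normalization, other centring and other probe sets. Fits of 1 genotype or 1 tissue alone, a filter on dim genes and each array left out were also run. The fit was tested on simulated data.

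The members and lists were chosen with earlier results of these data known. All members may be named. Of other lists, up to 4 genes per comparison with the largest change past the threshold are named. S100a8, Car1, Xcr1, Cd24a, Sirpa, Irf8, Bst2 and Siglech were named after their values were seen. So were the SLC2 and SLC16 genes outside the members and genes set beside another comparison. Promoters are from RefSeq on GRCm38.p6, and the motif search covered both strands.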

Additional observations from a re-analysis of the deposited data

Results flagged for a closer look

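For 19 members the difference between CD24+ and CD172a+ cells was not the same in the 2 tissues by the interaction term of the limma fit. Values are culture minus spleen on the log2 scale and do not depend on a constant shift of a tissue. In transport they were 2.87 for Slc2a3, 1.71 for Slc2a1, 1.62 for Slc16a3, 1.39 for Slc2a6 and -0.83 for Slc16a1. Among glycolytic enzymes and their regulators they were 1.48 for Hk2, -1.02 for Pfkfb3, -0.92 for Pfkp, 0.66 for Pkm, -0.51 for Eno2 and 0.45 for Pfkfb4. Around pyruvate and lactate they were 1.17 for Ldha, 0.42 for Pdha1 and 0.40 for Pdk3. The others were 1.07 for Pgm1, 0.80 for Taldo1, 0.65 for Tkt, 0.48 for Pgm2 and 0.46 for Hif1a. The Pdk3 value lost its call without the second KO (0.35) or first WT array (0.34) of cultured CD172a+ cells. No test for outlying samples was run, since groups held 2 arrays.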

How the results depend on the processing

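With KO arrays only, the members called fell to 13 in the spleen subset difference, 8 in culture and 7 in the difference between tissues, in a fit of 8 arrays. The fit of WT arrays only, also of 8 arrays, lost fewer of these calls. It lost those of Pdk3 and Pgd in spleen, Aldoa in culture and Pdk3 in the difference between tissues. In the genotype comparison of cultured CD24+ cells, leaving out 1 array gave 0 to 9 members called, the 9 without replicate 1 of the KO, and 10 to 1269 genes. Leaving out 1 array gave 19 to 23 members called in the spleen subset difference, 17 to 22 in culture, 18 to 24 for the difference between tissues, 27 to 30 for culture minus spleen in CD24+ cells and 23 to 28 in CD172a+ cells. With the mouse as a random replicate block (correlation 0.121) these counts were 21, 20, 20, 29 and 26, and as a fixed term 23, 20 and 23 for the first 3. The block removed no call and added those named above and, as a fixed term, the difference between tissues of Pfkl (0.41), Pgam1 (0.43) and Tpi1 (0.43). Of values past the threshold before or after the change, these reversed with the probe sets averaged or with values as deposited: Ldhb (-0.28, CD24+, as deposited), Pkm (-0.23, CD172a+, as deposited) and Hk1 (0.47 and 0.33 for culture minus spleen in CD24+ and CD172a+ cells, averaged). Culture minus spleen of Hk3 in CD24+ cells (-0.13) and of Pgam1 (-0.25) and Pfkl (-0.11) in CD172a+ cells also changed sign as deposited. The spleen subset difference of Hk1 was fitted on the values as deposited and changed sign with median-centred arrays. After quantile normalization, culture minus spleen of Pgam1 in CD172a+ cells (-0.09) and the difference between tissues of Pgd (-0.02) changed sign. None of these had a call on either side. With the probe set of most accessions, an alternative chosen after seeing the data, Hk1 was -0.41 in the spleen subset difference and 1.12 and 0.81 for culture minus spleen. The Pkm probe set with more accessions passed as higher in culture in CD172a+ cells, as given above. The cause of the KO-only losses was not tested. No background call was available, so a low signal is not shown to be absent.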
